A study of Xenopus laevis with 5 samples.

Results

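The RNA of Xenopus laevis embryos that had received a control morpholino was described at stage 10.5, the early gastrula. The libraries were chosen by their label, with earlier results of these data known. All 3 control morpholino libraries were taken, of 5 libraries in the series. The other 2 came from embryos given a morpholino against MOV10 and were not used here. A morpholino is a stable antisense oligonucleotide, and the control one stands in for injection without a chosen target. Each control embryo received 18 ng. Fertilised eggs of 2 mating pairs were used, and the labels do not tie an embryo to its parents. The label of each library is a whole embryo, and the protocol and design text describe the replicates as biological ones from separate embryos. The 3 libraries are called replicates 1, 2 and 3, as in their titles. With 1 group of 3 libraries there is no test between groups, so every difference below is set against the spread between these 3 libraries.

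The early gastrula is the time at which the embryo's germ layers begin to move into place. Up to the midblastula the embryo runs on RNA laid down in the oocyte, and its own genome then becomes active, so that a gastrula holds maternal and newly made transcripts side by side. On its dorsal side lies the Spemann organizer, whose cells secrete antagonists of BMP, Wnt and Nodal signals, while the ventral side responds to BMP. Xenopus laevis is an allotetraploid frog, and most of its genes exist in an L and an S copy, one from each parental genome.

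Gene reads numbered 13515787, 12114894 and 11592035 in replicates 1, 2 and 3. They were 9.01 to 10.4% of 120128621 to 130533952 reads in all, while 52.0 to 56.1% mapped outside annotated features and 31.5 to 35.6% were unmapped. Levels are given in CPM, counts per 1000000 gene reads of a library. CPM is not divided by transcript length, and no transcript length was used here. The order of genes below is therefore an order of reads, not of RNA molecules, and a long transcript gathers more reads than a short one at the same number of molecules. Reads were counted only where they mapped to a single place, so the division of reads between near-identical copies, such as some L and S pairs and tandem copies, is uncertain. A count of 0 allows a level of up to 0.222, 0.248 and 0.259 CPM in the 3 libraries, by a floor of 3 reads. The gene models came from 45099 entries of the Xenbase set on the Xenla9.1 build. Of these, 23563 had a Xenopus symbol and a further 9509 had only the symbol of the human gene they were matched to. The latter are written below with the human symbol and the model's identifier. Models with either kind of symbol held 92.2 to 93.2% of the gene reads.

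The stage label was compared with marker genes. All 20 gene models of the organizer list, all 18 of the ventral list and all 23 of the ectoderm list had reads, as had all 27 of the endoderm list and 21 of 22 of the mesoderm list. For this, 1 read in any library was enough. A mean of at least 10 CPM was reached by 16 organizer, 18 ventral, 19 ectoderm, 9 endoderm and 19 mesoderm models, and by 16.9% of all models. The gastrula-specific gene gs17.L had 1104, 809 and 977 CPM. Lists of differentiated tissues other than blood summed to less than these. Their counts of models with no read are to be read against all 45099 models, of which 39.5% had none in any library. The muscle list summed to 198, 512 and 291 CPM, with 12 of 41 models at 0 reads in all 3 libraries, among them both copies of tnni3, casq1 and tnnc1, genes of the sarcomere and its calcium store. This is a smaller share than among all models, and the muscle gene actc1.S reached 278 CPM in replicate 2. Neuron and photoreceptor genes summed to 43.6 to 60.2 CPM with 17 of 35 at 0, including both copies of neurod1, a neuronal differentiation factor. The list for liver, pancreas and gut summed to 38.1 to 58.2 CPM with 14 of 28 at 0. Most of it, 25 to 48.6 CPM, lay in INS model Xelaev18036057m.g, a model matched to human insulin, while both models named ins were at 0. The hatching and cement gland list summed to 48.5 to 101 CPM with 12 of 27 at 0, near the share of all models. Its members were agr2, agr3 and models named or matched to the mucin MUC2, and no hatching enzyme gene was among them. All 12 models at 0 were MUC2 ones. The blood and immune list reached 1171, 304 and 1241 CPM, although 22 of its 42 models were at 0, among them alas2.S (haem synthesis), both copies of tal1 (a blood cell regulator) and gata1.S. Its reads were in globin models, which are described last.

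The transcriptome was concentrated in few genes. The 100 most read gene models held 31.7, 34.3 and 34.8% of the gene reads (33.6 ± 1.66%, SD, n = 3), and 1000 models held 66.9 to 69.5%. To reach 50% of the reads took 389, 321 and 328 models, and to reach 90% took 3862 to 4250. At least 1 read was found for 24144, 23192 and 23190 models, of which 20070 had a read in all 3 libraries, while 17816 models had none in any. A mean of at least 10 CPM was reached by 7601 models, which is 16.9% of all 45099. At least 1000 CPM was reached by 103, 122 and 101 models. The lists of the 100 most read models shared 81 between all 3 libraries, out of 122 that were in any of them.

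**Figure D1:**
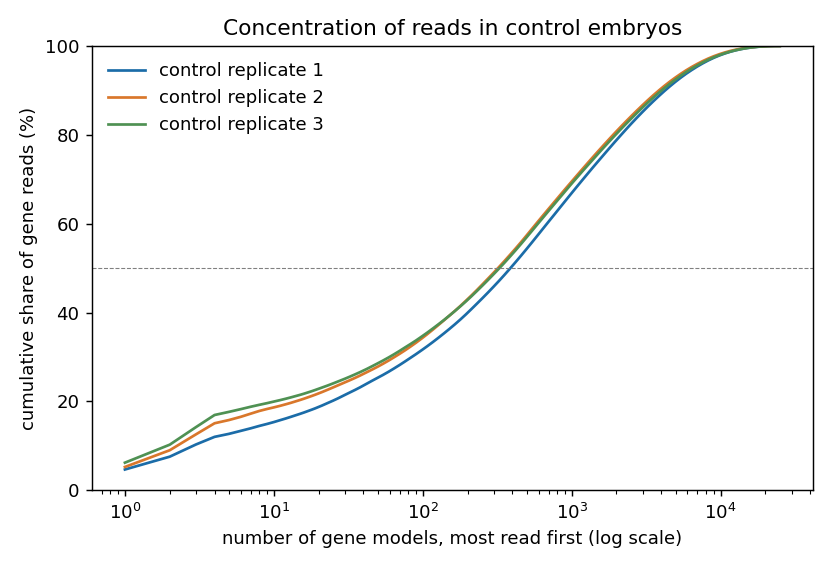
Cumulative share of gene reads (%, y axis) held by the most read gene models, counted from the most read (x axis, log scale), with 1 line per control library and a dashed line at 50%. The bend at 4 models marks the 4 most read mitochondrially encoded models, which held 12, 15.1 and 16.9% of the reads, where replicate 1 already lies below the other libraries.

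The 4 models with the most reads in every library lie on unplaced scaffolds that carry mitochondrial genes, and they are encoded by the mitochondrial genome. ATP6 model Xelaev18004681m.g, a subunit of the ATP synthase, is at 2651 to 3307 on Scaffold944 and had 46685, 52430 and 62065 CPM. It was the most read model in all 3 libraries. ND1 model Xelaev18001106m.g, a subunit of respiratory complex I at 878 to 1992 on Scaffold2050, had 28897, 35767 and 40530 CPM. A model without a symbol next to it, Xelaev18001105m.g, had 27438, 37633 and 39497 CPM. ND5 model Xelaev18003734m.g, another complex I subunit, had 17164, 24944 and 27287 CPM. All 4 were lowest in replicate 1 and highest in replicate 3. The ND6 model Xelaev18003735m.g, whose gene lies on the other mitochondrial strand, went the opposite way at 387, 255 and 175 CPM, and far more reads lay on its opposite strand. Together the 5 models held 12.1, 15.1 and 17% of the reads (14.7 ± 2.47%, SD, n = 3). Only scaffolds with a model matched to a mitochondrial gene were counted, so the mitochondrial share may be incomplete. Because shares add up to 100%, a library with more mitochondrial reads shows less of everything else. Without these 5 models it took 544, 500 and 541 models to reach 50% of the reads, and the 100 most read models held 21.9 to 23.2%.

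Among nuclear genes the most reads went to chromatin, translation and RNA-handling proteins. hmgb2.L, a DNA-bending chromatin protein, had 6767, 7134 and 7065 CPM, and its S copy had 3484, 3585 and 3219 CPM. Both copies stayed within a narrow range. The next 3 were EEF1A1 models, the elongation factor that brings aminoacyl-tRNA to the ribosome. EEF1A1 model Xelaev18029462m.g had 6730, 7286 and 5414 CPM, model Xelaev18004064m.g had 5738, 7228 and 6112 CPM, and model Xelaev18002122m.g had 5424, 6096 and 4371 CPM. The first and second of these changed places between libraries, and their likeness makes the division of reads among the 3 uncertain. The RNA helicase ddx5 came next, with 4231, 4384 and 3672 CPM for the L copy and 3713, 3462 and 3115 CPM for the S copy.

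The rest of the 25 most read models lay close together in level. They included both copies of hspa8, the constitutive cytosolic chaperone, at 3168, 3236 and 3567 CPM for the L copy and 2675, 2815 and 2731 CPM for the S copy. nop56.L and dkc1.L, core proteins of the snoRNA particles that modify ribosomal RNA, had 2807 to 3450 and 2778 to 2975 CPM. Splicing and RNA export were represented by srsf5.S, hnrnpk.L, hnrnpa1.S and ddx39a.L, and the ribosome by rps20.L at 2670, 3064 and 3046 CPM. For most neighbours in this order the ranges of the 3 libraries overlapped. Some of the 25 were less even. The lysosomal protease ctsv.L had 3815, 3240 and 2607 CPM and MUC5B model Xelaev18024376m.g, a mucin, had 4375, 2702 and 2203 CPM. Replicate 1 was the highest for both. Of the 25 models, 3 had no symbol and 7 had a human symbol only.

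**Figure D2:**
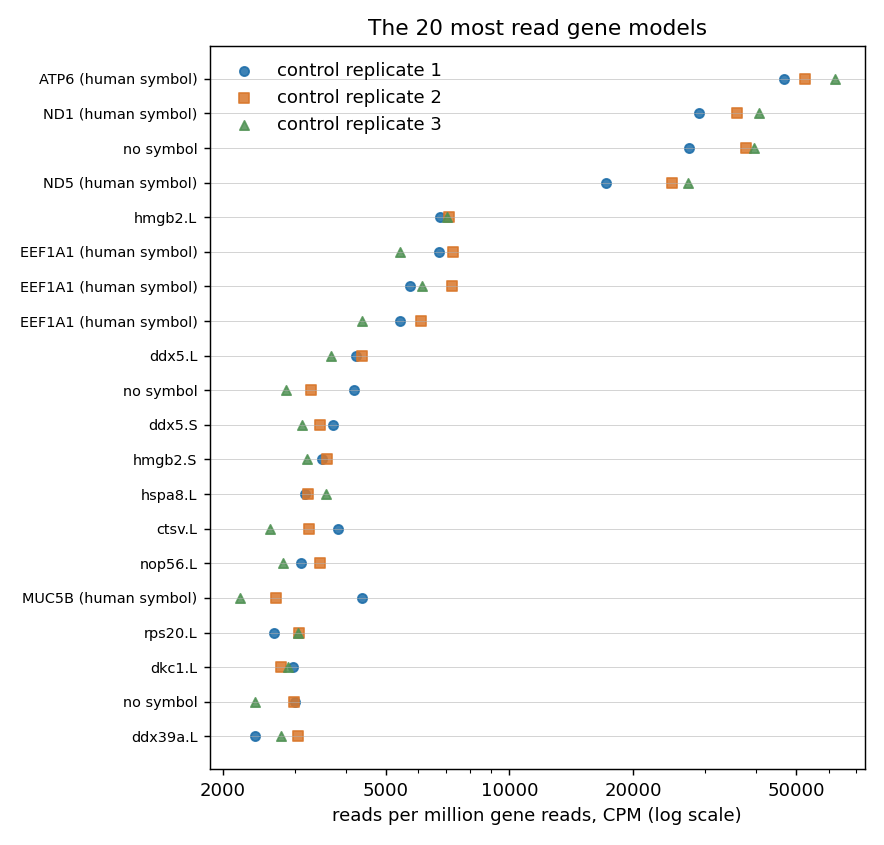
Level in CPM (x axis, log scale) of the 20 gene models with the highest mean over the 3 control libraries (y axis, most read at the top), with 1 symbol per library. The 4 mitochondrially encoded models stand apart to the right, and below them the 3 symbols of most models lie close together, with MUC5B among the wider ones.

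The genes of protein synthesis formed the most read nuclear group. Cytoplasmic ribosomal protein genes held 8.86, 10.9 and 10.1% of the gene reads (9.95 ± 1.03%, SD, n = 3), with 4.02 to 4.97% in the small and 4.84 to 5.93% in the large subunit. Of 174 models, 148 had a mean of at least 100 CPM and 23 of at least 1000 CPM. This was an even family: its 4 most read models, rps20.L, rpl12.S and a pair matched to RPS12, held 7.78% of its reads. rpl12.S had 1446, 1883 and 1673 CPM. The translation factors were the opposite, since 4 models, the 3 EEF1A1 models and eef1g.L, held 55.2% of the list's reads. The list had 3.46, 3.73 and 3.26% of the gene reads, and eef1g.L, another subunit of the elongation factor complex, had 986, 1076 and 1199 CPM. Ribosomal protein genes of the mitochondrion were far less read, at 0.333 to 0.381%, with mrps26.L the highest at 300.2, 313 and 398 CPM. Nucleolar proteins, which build the ribosome's parts, held 1.15 to 1.33%, led by nop56.L and dkc1.L and followed by ncl.S (nucleolin) at 1808, 1458 and 1333 CPM and NPM1 model Xelaev18020022m.g (nucleophosmin) at 1375, 1367 and 1234 CPM.

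RNA-processing genes came second. The hnRNP, SR and RBM proteins, which coat and splice pre-mRNA, held 4.79, 4.51 and 4.21% of the reads over 138 models, and 15 of these had at least 1000 CPM. Their most read members were srsf5.S at 2940, 2838 and 2348 CPM, hnrnpk.L at 2589, 2874 and 2624 CPM and hnrnpa1.S at 3017, 2424 and 2015 CPM. The next, rbm6.S at 2055 to 2395 CPM, was matched to human RPS20 in the annotation, so its name is in doubt. The core spliceosome had 2.16 to 2.25%, led by both copies of snrnp70, a U1 particle protein, and of snrpb, a protein of the Sm ring. snrnp70.L had 2014, 1951 and 1579 CPM and snrpb.S 1456, 1896 and 1917 CPM. The DEAD and DEAH box helicases, which remodel RNA and its protein complexes, had 1.94, 1.99 and 1.77%, of which the copies of ddx5 and ddx39a held 61.5%. The splicing and helicase lists together held 8.15 to 8.89% of the gene reads. Their range did not overlap that of the ribosomal protein and translation factor lists together, which was 12.3 to 14.6%.

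Chaperones, chromatin and cell division followed. Heat shock proteins and chaperonins held 1.6 to 1.68%, of which both hspa8 copies, hsp90b1.L and hsp90ab1.S held 49.4%. hsp90b1.L, the chaperone of the endoplasmic reticulum, had 1668, 1236 and 1663 CPM. Histones held 0.815, 0.747 and 0.886%, and 74.9% of that lay in 4 models of replacement variants. These were the H3F3B models Xelaev18045270m.g at 2096, 1887 and 2384 CPM and Xelaev18047575m.g at 1491, 1200 and 1752 CPM, with h2afz.L at 1503, 1442 and 1429 CPM and h2afz.S at 1044, 1042 and 1065 CPM. Canonical histone messages in animals mostly lack a poly(A) tail, and the libraries came from a kit for mRNA, so their level is not described by these counts. Cyclins and mitotic kinases held 0.497 to 0.566%, led by ccnb1.2.L, ccnb3.S, ccnb2.L and ccnb1.2.S, all B-type cyclins that drive mitosis. ccnb3.S had 699, 669 and 562 CPM. The DNA replication list held 0.515, 0.391 and 0.389%, led by both copies of gmnn (geminin, which limits replication licensing), mcm7.L (a subunit of the replicative helicase) and pcna.L (the sliding clamp). gmnn.S had 465, 363 and 390.0 CPM. Nuclear pore and transport genes held 0.450 to 0.501%, with nup62.L at 386, 384 and 369 CPM in front, followed by nup50.S, nup188.S and ran.L.

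Of energy metabolism the respiratory chain and glycolysis were listed, and more reads, over more models, lay in the respiratory chain. Its nuclear-encoded subunits held 1.01, 1.05 and 1.17% over 158 models, with atp5b.S, the catalytic ATP synthase subunit, at 717, 873 and 966 CPM and cycs.S, cytochrome c, at 385, 397 and 336 CPM. The glycolytic enzymes held 0.125, 0.116 and 0.153% over 39 models, below the respiratory chain in every library. Their leading models were LDHB model Xelaev18019895m.g (lactate dehydrogenase) at 412, 340.5 and 503 CPM, the GAPDH models Xelaev18036725m.g at 195 to 267 CPM and Xelaev18034420m.g at 94.2 to 109 CPM, and tpi1.L at 87.2 to 114 CPM. Proteasome subunits held 0.466 to 0.518%, with psmd6.L at 308 to 323 CPM the most read, then psmb6.L, psmd13.S and psmc3.L. Solute carriers, a list of 644 models, held 0.869, 0.660 and 0.747%. Of them 183 had no read, a smaller share than the 39.5% of all models. slc12a3.2.S, of the sodium and chloride cotransporter family, had 647, 280.2 and 659 CPM, and slc25a3.L, the mitochondrial phosphate carrier, 531, 445 and 592 CPM. The 586 zinc finger models named znf held 1.22, 1.06 and 0.947%, led by ZNF451 model Xelaev18027368m.g at 1264, 548 and 375 CPM and znf326.S at 757, 644 and 612 CPM.

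The reads of cytoskeletal and adhesion families lay mostly in few members, with 4 models holding 64.3% of the reads of 39 tubulin models, 72% of those of 81 keratin models and 93.5% of those of 14 actin models. Keratins, the intermediate filaments of epithelia, held 0.732, 0.555 and 0.758%. At 0 reads were 41 of 81 models, a larger share than the 39.5% of all models. krt18.L had 2577, 1405 and 2014 CPM, krt.S 1275, 1179 and 1700 CPM and krt18.S 1018, 1017 and 954 CPM. Claudins, which seal tight junctions, held 0.408, 0.360 and 0.269%, and the 4 models of cldn6.1 and cldn6.2 held 92.2% of the family's reads. At 0 were 33 of 56 models, also a larger share than among all models. cldn6.2.L had 1426, 1347 and 858 CPM. Among cadherins, the calcium-dependent adhesion proteins, 21 of 51 were at 0, near the share of all models, and cdh3.L was the most read at 204, 142 and 133 CPM, before cdh3.S at 63.0 to 96.1 CPM and cdh1.S at 68.1 to 80.2 CPM. Tubulins held 0.244, 0.275 and 0.307%, led by TUBB4B model Xelaev18038180m.g at 557, 748 and 737 CPM and both copies of tuba3c. Actins held no more than 0.0701% in any library, with the ACTB models Xelaev18047430m.g and Xelaev18045052m.g at 144 to 248 and 151 to 197 CPM. Annexins held 0.0644 to 0.0815%, led by anxa4.L at 233, 188 and 272 CPM. Sox factors held 0.215, 0.136 and 0.177% and forkhead factors 0.107, 0.0827 and 0.108%. sox15.L had 374, 384 and 305 CPM, and foxi4.2.S, an epidermal regulator, 141, 128 and 183 CPM. All family lists together covered 3052 models and 44.6, 48.8 and 49.2% of the gene reads.

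**Figure D3:**
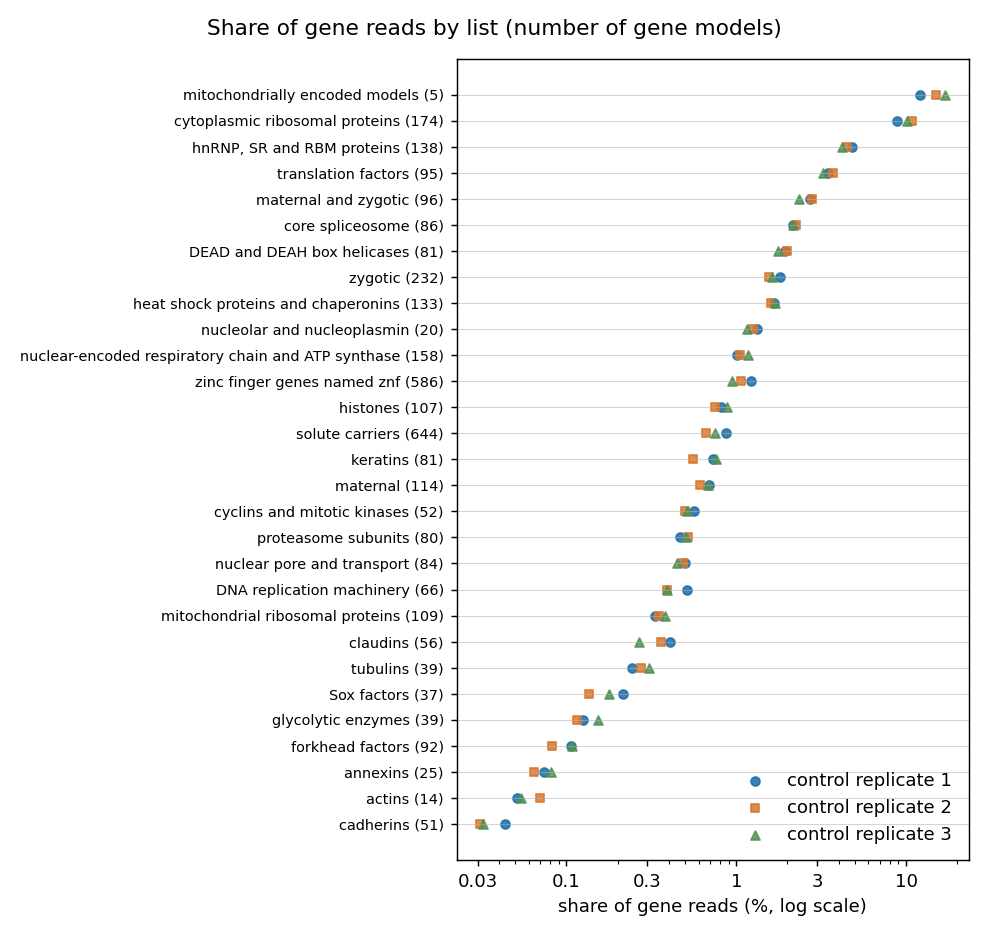
Share of gene reads (%, x axis, log scale) of each family or list (y axis, with its number of gene models), with 1 symbol per control library. Mitochondrially encoded models and ribosomal proteins lead, and the libraries lie close together for most lists, with replicate 1 to the left for both of these.

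Maternal and zygotic genes were counted on lists of well-known members, which do not sort every transcript by its origin. The maternal list, of RNAs stored in the oocyte, held 0.692, 0.614 and 0.680% of the gene reads (0.662 ± 0.0422%, SD, n = 3). Of its 114 models 63 had a mean of at least 10 CPM and 18 of at least 100 CPM. The zygotic list, of genes switched on by the embryo's own genome, held 1.82, 1.56 and 1.62% (1.67 ± 0.134%, SD, n = 3). Of its 232 models 131 were at 10 CPM or more and 46 at 100 CPM or more. As shares of their lists, 55.3% of maternal and 56.5% of zygotic models reached 10 CPM, against 16.9% of all models. The median model of either list had 13.5 CPM. Among all 45099 models 1625 reached 100 CPM. Zygotic reads were 2.63, 2.55 and 2.38 times the maternal reads. The ranges of the lists did not overlap, but they differ in the number of models and in transcript length, so the ratio describes these lists only. Genes known to be both maternal and zygotic held 2.72, 2.79 and 2.34%, of which EEF1A1 models gave 1.82, 2.09 and 1.62%. Models on none of these lists held 94.8 to 95.4% of the reads.

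The most read maternal genes were those of the meiotic and mitotic cell cycle. ccnb1.2.L, a B-type cyclin, had 685, 608 and 678 CPM and its S copy 512, 565 and 528 CPM. ccnb2.L had 565, 492 and 639 CPM, and TPX2 model Xelaev18046384m.g, a spindle assembly factor, had 415, 376 and 389 CPM. None of these ranges was wide, and 19 models of the maternal list are also on the list of cyclins and mitotic kinases. Oocyte-specific members were lower. The oocyte linker histone gene h1foo.S had 336, 221 and 290.1 CPM, and zp2.L, of the egg's envelope, had 114, 61.2 and 104 CPM. The oocyte and follicle list summed to 786, 495 and 829 CPM, and its follicle gene cyp19a1.L (aromatase) was at 0 in all 3 libraries. Germ plasm genes, whose RNAs are carried into the future germ cells, summed to 367, 218 and 303 CPM. ddx4.L (the Vasa helicase) had 171, 133 and 149 CPM, and pgat.L 50.9, 23.4 and 40.4 CPM.

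The most read zygotic genes were gs17.L and 4 VENTX models, homeobox repressors that act downstream of BMP. VENTX model Xelaev18036903m.g had 812, 987 and 853 CPM, model Xelaev18036901m.g 716, 754 and 687 CPM, and model Xelaev18034617m.g 651 to 701 CPM. These close neighbours are copies of one another, so reads could be divided among them wrongly. The ventral and BMP response list summed to 3381, 3240 and 3207 CPM, and all 18 of its models had a mean of at least 10 CPM. Only the sum was this even: the median SD over mean of its members was 0.196, against 0.168 for all models with at least 10 CPM. bambi.L, a pseudoreceptor that dampens BMP signals, had 542, 512 and 537 CPM, and bambi.S 357, 367 and 425 CPM. In the same list ventx1.2.S had 324, 380.4 and 396 CPM and ventx1.1.S 259, 289 and 319.9 CPM. Other members went opposite ways. szl.L (Sizzled, a secreted feedback inhibitor of the ventral side) was highest in replicate 2 at 173, 362 and 206 CPM, while id3.L (an inhibitor of bHLH factors and a BMP target) was lowest there at 266, 133 and 185 CPM. Among genes that are both maternal and zygotic, fn1.L (fibronectin, the matrix on which gastrula cells crawl) had 915, 755 and 751 CPM, and pou5f3.2.L (an Oct4-related pluripotency factor) 543, 473 and 548 CPM.

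The L chromosomes, with 23666 models, held 45.5, 43.3 and 42.8% of the gene reads. The S chromosomes, with 16939 models, held 35.0, 33.9 and 33.2%. The remaining 19.5, 22.8 and 24% lay on 4493 models of unplaced scaffolds, which include the mitochondrial ones. Since the numbers of models differ, these shares do not compare the levels of L and S copies.

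The 3 libraries resembled one another closely across genes. Over the 27283 models with a read in any library, Pearson's r of log2(CPM + 1) was 0.973 for each of the 3 pairs and Spearman's rho 0.928, 0.926 and 0.923. These correlations run across genes, which are not independent replicates and share library and depth, so they are a description. Of the models with a mean of at least 10 CPM, 78.9 to 82.4% were within 1.5-fold between 2 libraries and 4.21 to 6.35% differed by more than 2-fold. Yet the libraries differed well beyond counting error. The biological coefficient of variation by edgeR, which is the relative spread left after counting error, was 0.276 over 14999 models. That is 1 value common to all models. The trended coefficient, which edgeR fits as a smooth function of level, had a median of 0.331 at 1 to 10 CPM and 0.210 at 1000 CPM or more. At a mean of at least 10 CPM the median SD over mean was 0.168, against 0.0486 from counting alone, and 80.5% of the models lay above 2 times their counting error. No pair of libraries was close enough to be 1 library deposited again, since the chi-square over its degrees of freedom was 19.3 to 29.2.

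**Figure D4:**
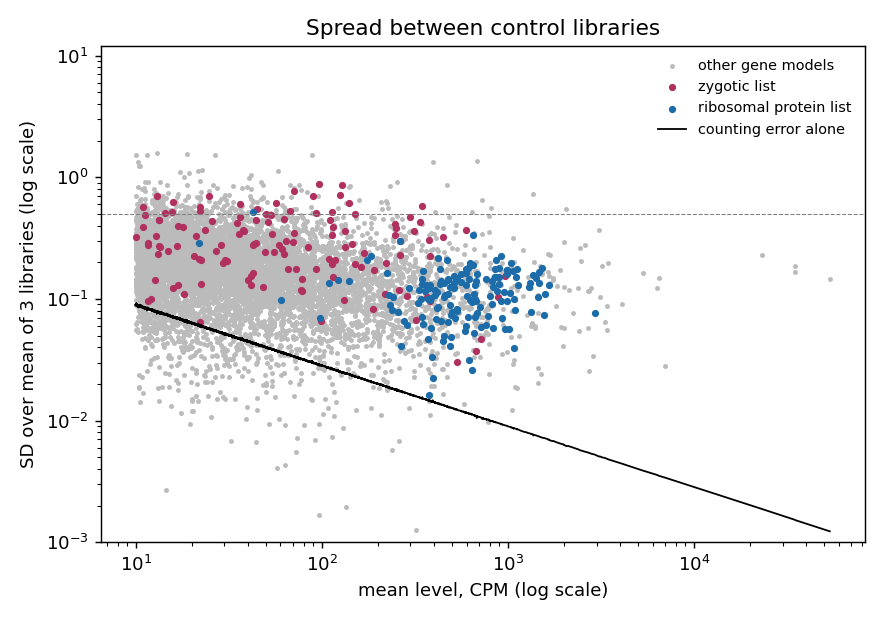
SD over mean of the 3 control libraries (y axis, log scale) against the mean level in CPM (x axis, log scale) for the 7601 gene models with a mean of at least 10 CPM, with zygotic and ribosomal protein lists in colour. The black line is the value that counting error alone gives and the dashed line marks 0.5. Most points lie above the black line, 21 zygotic models lie above the dashed line, and ribosomal protein models lie mostly low.

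An SD over mean above 0.5 was found for 261 of 7601 models, or 3.43%. The count was 392 without replicate 3. In 94 of the 261 models (36.0%) replicate 1 stood apart as the highest and in 44 as the lowest. Replicate 2 stood apart in 22 and 42, and replicate 3 in 33 and 26. A model can reach a mean of 10 CPM through 1 high library alone. This favours the counts of the highest over those of the lowest, so they are only a description. Of all 7601 models 43.5% were highest in replicate 1 by total gene reads, and 34.0% by TMM. That share does not require the library to stand apart. Among zygotic genes an SD over mean above 0.5 was found for 21 of 131 models (16%), against 5 of 63 maternal models (7.94%). It was found for 1 of 152 ribosomal protein models (0.658%) and 0 of 101 models of the hnRNP, SR and RBM list. The medians within a range of level were as follows. Between 10 and 100 CPM the median SD over mean was 0.286 for 85 zygotic models and 0.282 for 45 maternal models, against 0.185 for all 5976 models. Between 100 and 1000 CPM it was 0.234 for 46 zygotic, 0.0851 for 18 maternal and 0.109 for 125 ribosomal protein models, against 0.119 for all 1518.

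The genes of the embryo's axes differed between the 3 embryos in groups. Counts below are of list members with a mean of at least 10 CPM, scaled by total gene reads and then by TMM, which is less affected by a few very abundant genes. Of all such models 43.5% were highest in replicate 1, and 34.0% by TMM. Of 16 organizer and dorsal mesoderm models 13 were highest in replicate 1 by either scaling, and the list summed to 2168, 1208 and 1215 CPM. Among the 13, admp.S reached a mean of 10 CPM only through replicate 1, at 23.5, 6.93 and 8.45 CPM. L and S copies of a gene are counted as separate models. cer1.S (Cerberus, a secreted antagonist of Nodal, BMP and Wnt) had 461, 197 and 240.3 CPM, frzb.L (a Wnt antagonist) 229, 66.5 and 80.1 CPM, and chrd.S (Chordin, a BMP antagonist) 435, 287 and 214 CPM. The anterior homeobox gene otx2.L had 27.3, 10.2 and 9.83 CPM, and the Wnt antagonist dkk1.L, of the zygotic list, 193, 29.3 and 68.7 CPM. The exceptions were not.L and not.S, homeobox genes of the future notochord, at 8.73, 27.6 and 30.6 CPM and at 10.4, 24.3 and 19.1 CPM, and nog.L (Noggin). In a whole embryo, fewer cells of a type and less RNA per cell cannot be told apart.

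Mesoderm genes split. Of all models 25.5% were lowest in replicate 1, and 34.3% by TMM. Of 19 mesoderm models 11 were lowest there, and 12 by TMM, and the list summed to 1546, 2441 and 2164 CPM. The myogenic factor genes myf5.L and myod1.S had 122, 514 and 405 CPM and 66.4, 211 and 177 CPM. tbx6.L, a T-box gene of the ventral and lateral mesoderm, had 304, 592 and 453 CPM, and fgf8.L, an FGF ligand, 30.6, 84.4 and 72.8 CPM. Other mesoderm genes had the opposite order, with replicate 1 the highest. eomes.L, a T-box gene of early mesendoderm, had 180.1, 78.2 and 80.9 CPM, and wnt8a.L 214, 155 and 138 CPM. The muscle gene actc1.S (cardiac actin) followed the myogenic factors at 48.8, 278 and 98.6 CPM, as did actc1.L at 15.3, 72.9 and 35.6 CPM. The muscle list summed to 198, 512 and 291 CPM, and both copies of actc1 and of myh6 held 81.2% of it. The myh6 copies did not follow, at 54.2, 55.2 and 51.0 CPM and at 38.8, 28.0 and 36.7 CPM. Of the 7 muscle models with at least 10 CPM, 5 were lowest in replicate 1 by either scaling. Among the 5, myl1.L, tnnt3.L and tnnt3.S reached a mean of 10 CPM only with replicate 2, where they were highest. The others were the L and S copies of actc1, so this count is only a description.

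Replicate 2 stood low for several lists, endoderm and germ plasm among them. Of all models 38.0% were lowest in replicate 2, and 30.4% by TMM. All 9 endoderm models were lowest there by either scaling, and the whole list summed to 1602, 762 and 1447 CPM. sox17a.S, a transcription factor gene that specifies endoderm, had 462, 177 and 374 CPM, sox17b.1.L 304, 195 and 296 CPM, foxa2.S 72.1, 23.4 and 65.2 CPM and gata5.L 17.9, 6.69 and 22.4 CPM. nodal.L, below 10 CPM on average, had the reverse order at 3.03, 11.8 and 7.51 CPM. All 6 germ plasm models were lowest in replicate 2 as well, such as nanos1.L, a translational repressor gene of germ cells, at 41.9, 13.9 and 30.7 CPM and velo1.L at 45.6, 15.9 and 38.8 CPM. Of 10 oocyte and follicle models 9 were lowest in replicate 2 by either scaling. So were 38 of 63 maternal models, and 36 by TMM. For forkhead factors it was 13 of 18 models, and 10 by TMM, and for keratins 11 of 17, and 9 by TMM. The lists overlap, since the whole germ plasm and oocyte lists share 12 models each with the maternal list. Endoderm and germ plasm RNAs both lie in the vegetal part of the embryo, and whether this bears on the values was not tested. The part of the oocyte and germ plasm lists in the endoderm values was not tested. Ectoderm and neural plate genes split, although 12 of 19 models were highest in replicate 1, and 11 by TMM. Among all models these shares were 43.5%, and 34.0% by TMM. Which library was lowest depended on the scaling: 11 models were lowest in replicate 2 by total reads and 7 by TMM, and 5 and 9 in replicate 3, against 36.5% of all models by total reads and 35.4% by TMM. The ectoderm list summed to 2330, 1807 and 1994 CPM. By total reads both copies of gmnn and of sox3 were highest in replicate 1, such as sox3.S at 191, 142 and 97.7 CPM. Both copies of the epidermal regulators tfap2a and foxi4.2 were highest in replicate 3. tfap2a.L had 269, 224 and 283 CPM and foxi4.2.L 95.6, 96.6 and 136 CPM. Both copies of foxd4l1.1 were lowest in replicate 1, such as foxd4l1.1.L at 21.8, 45.2 and 46.5 CPM.

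Replicate 3 had the highest sum of the multiciliated cell list and stood high for energy metabolism. Of all models 28.3% were highest in it, and 29.3% by TMM. The multiciliated cell list summed to 71.4, 114 and 189 CPM. Of its 29 models 5 had a mean of at least 10 CPM, and ccno.L and tekt1.L passed that mean only through replicate 3, so no count is drawn from them. dnai1.L, a dynein chain of motile cilia, had 13.0, 18.1 and 32.3 CPM. Other members were highest in replicate 2, such as tekt2.S at 1.70, 8.34 and 6.99 CPM and tekt1.S at 1.48, 2.48 and 1.64 CPM. foxj1.S, the main regulator of motile cilia, had 3.92, 6.6 and 10.9 CPM. Respiratory chain genes were highest in replicate 3 in 90 of 125 models, and in 85 by TMM, and glycolytic genes in 12 of 14 by either scaling. Mitochondrially encoded models were highest in replicate 3 in 4 of 5. These shifts were small for single genes of the respiratory chain, with a median of 0.13 on the log2 scale in replicate 3 against the mean of the 3 libraries.

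Ribosomal protein genes moved together but little. Of all models 28.2% were highest in replicate 2, and 36.7% by TMM, while 25.5% were lowest in replicate 1, and 34.3% by TMM. Of 152 ribosomal protein models 109 were highest in replicate 2 and 137 were lowest in replicate 1, and by TMM 119 and 148. Their medians against the mean of the 3 libraries were -0.17, 0.12 and 0.02 on the log2 scale in replicates 1, 2 and 3. RPL7 model Xelaev18024157m.g was the widest of them at 42.9, 64.7 and 20.6 CPM. DNA replication genes leaned toward replicate 1, with 33 of 49 models highest there, and 29 by TMM. Of all models 43.5% were highest in replicate 1, and 34.0% by TMM. Among the 49, cdt1.S reached a mean of 10 CPM only through replicate 1, at 22.4, 6.11 and 9.66 CPM. cdc6.L, a licensing factor gene, had 329, 143 and 247 CPM.

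**Figure D5:**
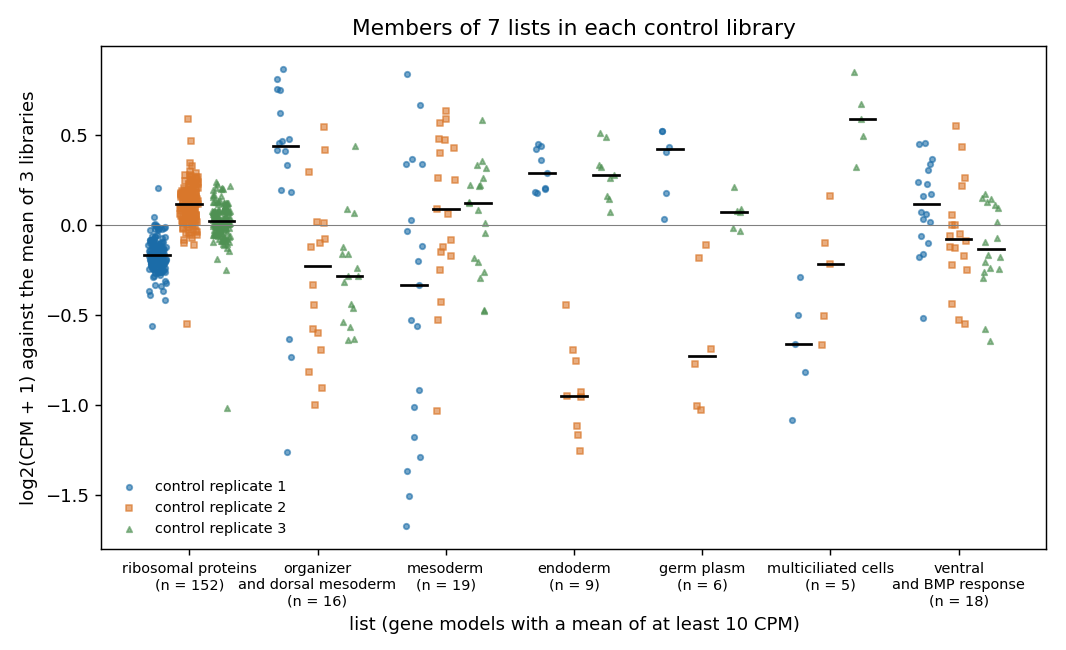
Level of each list member with a mean of at least 10 CPM in each control library, as log2(CPM + 1) against the mean of the 3 libraries (y axis), for 7 lists (x axis, with the number of models). Black bars are medians. Organizer models are mostly highest in replicate 1, endoderm and germ plasm models are all lowest in replicate 2, the 5 multiciliated cell models include ccno.L and tekt1.L, which reached 10 CPM only through replicate 3, and ribosomal protein models lie in narrow bands.

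The widest and narrowest single genes show the range. The widest of all named models was sst.L, the gene of the peptide hormone somatostatin, at 36.7, 1.07 and 1.12 CPM, followed by menf.1-like.1.1 at 2.66, 1.07 and 52.7 CPM and EEF1A1 model Xelaev18029519m.g at 3.77, 73.9 and 2.42 CPM. dctn1.L (a dynactin subunit) had 31.8, 1.16 and 1.64 CPM, ankrd12.S 17.2, 5.28 and 244 CPM and prdm1.L (a transcriptional repressor) 25.2, 2.64 and 3.36 CPM. In each of these 1 library was high and the others were low, a pattern that follows from picking the largest SD over mean. Models such as sst.L reached a mean of 10 CPM only through their high library, so their spread is only a description. ABHD15 model Xelaev18011870m.g, slc30a8.L (a zinc transporter) and TECPR1 model Xelaev18038061m.g were high in replicate 3. wdr3.S, FTH1 model Xelaev18037839m.g and ATP13A4 model Xelaev18027498m.g were high in replicate 1. The most abundant of the 12 widest was wdr3.S, a ribosome assembly gene, at 1757, 131 and 155 CPM.

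At the other end, sp5l.L, a zinc finger gene related to the Wnt target Sp5, had 320.4, 321 and 321 CPM, an SD over mean of 0.00126 where counting error alone gives 0.0159. tipin.L (replication fork protection) had 135, 136 and 135 CPM and nelfb.L (a subunit of the factor that pauses RNA polymerase) 239.8, 238 and 241 CPM. They were picked as the lowest of the models with at least 100 CPM, 1625 in all, so their spread is only a description. The 12 narrowest also held sde2.S, dhx38.L, dpy30.L, ddx21.S, slc52a1.L, sf3b4.L, naa40.S, msl1.L and h2afz.S, several of them genes of RNA processing or chromatin.

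Some genes were more than 10-fold lower or higher in 1 embryo than in both others. A level more than 10-fold under both other libraries, these being at 10 CPM or more, was found for 16 models, or 0.212% of 7548. The reverse, a level of at least 10 CPM in 1 library that was over 10-fold that of both others, was found for 12 models, or 0.142% of 8469. Replicates 1, 2 and 3 were the low library for 6, 7 and 3 models and the high library for 4, 2 and 6. alpl.S, the gene of a tissue alkaline phosphatase at 85168527 to 85190336 on chromosome 7S, had 2.59, 459 and 305 CPM, a 177-fold range with 35 reads in the low library. kansl2.S, of a histone acetyltransferase complex on 2S, had 321, 370.5 and 8.02 CPM, and xdh.S, the purine-degrading enzyme xanthine dehydrogenase on 5S, 198, 219.8 and 5.43 CPM. ikbkg.S, a regulator of NF-kappa-B signalling, had no read in replicate 1 and 23.2 and 20.9 CPM in the others, at least 104-fold higher in replicate 2 against the floor of 3 reads per library.

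Of the 7 models low in replicate 2, 4 lay in 2 pairs, each within 100 kb. The pairs are of related genes, 2 globins and 2 PARP4 models. The share of all models with such a neighbour is not given here, so the count of pairs is only a description. The first pair lies on chromosome 9_10L. HBZ model Xelaev18045098m.g, a globin at 85884524 to 85886375, had 746, 2.31 and 674 CPM, and HBA1 model Xelaev18045097m.g, at 85876986 to 85877651, had 96.0, 0 and 107 CPM, at least 433-fold higher in replicate 3 than the floor in replicate 2. They are 6873 bases apart. The nearby globin HBZ model Xelaev18045095m.g did not share the pattern, at 165, 174 and 259 CPM, and hbz.L had 151, 122 and 188 CPM. Globins carry oxygen in red blood cells, which form after gastrulation. The source of the globin reads was not tested. The second pair lies on chromosome 2L. parp4.L, of the poly(ADP-ribose) polymerase family, at 162435030 to 162501088, had 206, 1.16 and 178 CPM, and PARP4 model Xelaev18013805m.g, at 162511115 to 162574120, had 38.7, 1.65 and 41.5 CPM, with 10027 bases between them. Among the 6 models low in replicate 1, and the 3 low in replicate 3, no 2 lay within 100 kb of each other. These sets are too small to set against replicate 2.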

How the data were processed

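RNA was sequenced from 3 control embryos; the library kit was a stranded TruSeq one for mRNA, per the labels' protocols. Of the tools in the submitters' processing notes, STAR is listed as 2.5.2a and bcl2fastq as 2.17.1.14. The deposited counts are whole-number reads per gene model in STAR's layout, in which a read is counted if it maps to a single place. Column 4, reads on the reverse strand and so the sense column of such a kit, was used. The lines that name no gene were left out of totals. Symbols and coordinates come from the authors' deposited annotation table, per its legend the Xenbase 1.8.3.2 set on Xenla9.1, and its other values (start, end and width) are in bases. That annotation had an entry for 45098 of the 45099 models, with or without a symbol.

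CPM and shares were computed from total gene reads, and differences between libraries from log2(CPM + 1). Shares in 1 library had Wilson 95% intervals no wider than ± 3.24% of the share for families and ± 9.45% for marker lists, for counting error only, since reads are not independent molecules. The coefficient of variation came from edgeR 4.0.16 (R 4.3.3) with an intercept only, TMM scaling and filterByExpr with a minimum count of 10. It was checked on simulated data. DESeq2 1.42.0, other scalings, the unstranded column, filters, pseudocounts and leaving out each replicate were tried.

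The libraries and the 42 gene lists were chosen with earlier results of these data known, and the lists were refined on the deposited names. Named are the 25 most read models, up to 4 leading members of a list, and the 12 widest and 12 narrowest models with a symbol. Other genes were named after their values were seen. These were those given for the organizer, mesoderm, endoderm, ectoderm, germ plasm, muscle and cilia lists beyond the leading 4, dkk1.L and cdc6.L. They also include the widest ribosomal protein model and the genes over 10-fold lower in 1 library. Some genes that the rule selects are counted and not named. Mitochondrially encoded models are those on the 3 scaffolds that carry ATP6, ND1, ND5 or ND6. The p-values of the authors' own comparison and the MOV10 libraries were not used here.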

Additional observations from a re-analysis of the deposited data

Results flagged for a closer look

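Reads on the opposite strand of gene models, which none of the shares above use, were 6.15, 6.92 and 7.89% of the reads on either strand in replicates 1, 2 and 3. They are above the floor of 3 reads in each library, and there is no control sample within the group to set them against. A single model without a symbol, Xelaev18000045m.g on an unplaced scaffold that was not counted as mitochondrial, held 49.2, 50.2 and 52.5% of them, and with ND6 model Xelaev18003735m.g the share was 71.3, 73.2 and 76.1%. In all, 392 models had more reads on the opposite strand than on their own and at least 100 of them over the 3 libraries, and 132 of these had a symbol.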

How the results depend on the processing

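No paired analysis was possible because only 1 group is described. Of the alternatives for the main results, 67 stayed within 1 SD, or within 1.5 times for a count, and 43 moved. The share of the 100 most read models (33.6%) became 36.5% without strand, 5.15% of all reads at a single place, 20.3% without the 10 most read models and 22.7% without mitochondrially encoded models, and the 346 models that hold 50% of the reads became 528. With all single-place reads as the denominator, shares were 2.24% for mitochondrially encoded models, 1.52% for ribosomal proteins, 0.536% for translation factors, 0.254% for heat shock proteins, 0.695% for hnRNP, SR and RBM proteins, 0.337% for the spliceosome, 0.292% for helicases, 0.102% for maternal and 0.257% for zygotic genes. Without the 10 most read models they were, in this order, 0.0330, 12, 2.03, 2.01, 5.49, 2.67 and 1.81%, the last within 1 SD, with 0.807% maternal and 2.03% zygotic. Without the mitochondrially encoded models they were 11.7, 4.08, 1.94, 5.28, 2.57 and 2.22% from ribosomal proteins to helicases, 0.776% maternal and 1.95% zygotic. Without strand, heat shock proteins had 1.54%, the spliceosome 2.06%, helicases 1.77% and maternal genes 0.620%. The coefficient of variation was 0.398 without the filter on low counts. The mean correlation was 0.935 and 0.981 with pseudocounts of 0.1 and 5, and 0.966 after edgeR's filter. Models with an SD over mean above 0.5 were 2556 at 1 CPM or more and 27 at 100 CPM or more.

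Leaving out each replicate gave 33.0 to 34.5% for the 100 most read models, 324 to 358 models for 50% of the reads and 23191 to 23668 models with a read. It gave 13.6 to 16% for mitochondrially encoded models, 9.48 to 10.5% for ribosomal proteins, 3.36 to 3.59% for translation factors, 1.64 to 1.68% for heat shock proteins, 4.36 to 4.65% for hnRNP, SR and RBM proteins, 2.16 to 2.21% for the spliceosome, 1.85 to 1.96% for helicases, 0.647 to 0.686% for maternal and 1.59 to 1.72% for zygotic genes. The coefficient of variation was 0.267 to 0.286, the correlation 0.973 throughout and the count of wide models 241 to 392, the latter without replicate 3. The human symbol before the Xenopus name, an alternative added after seeing the data like the one without mitochondrial models, left all these shares within 1 SD of the value given. Models low or high in 1 library stayed at 16 and 12 by TMM and by DESeq2 size factors and were 19 and 13 without strand. Levels under 1 CPM rest on few reads and were not read as differences.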
